A study of Mus musculus with 21 samples.

Results

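The strongest SI-biased VDR genes are Crat, Nsun5, Tmem104, Dapk2 and Pfkfb3, 5 of the 22367 protein-coding genes of the mm9 annotation. They were selected on VDR binding: a VDR site assigned to each of them lies in the deposited set of sites with higher binding in SI villus than in colon. For each gene, the pooled VDR and ATAC-seq peaks that overlap the gene body plus 60 kb on each side were collected. Their height, as pileup (the number of fragments stacked at the summit), and the number of single samples that also called them were recorded. The 5 windows hold 65 of the 53662 pooled VDR peaks and 199 of the 178944 pooled ATAC-seq peaks of the series.

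The vitamin D receptor (VDR) is a nuclear receptor that binds DNA with the retinoid X receptor once it holds the hormone 1,25(OH)2D3, usually at a direct repeat of a short half-site with a 3-base spacer (DR3). In the intestine it is best known for the control of genes of calcium absorption. The 5 genes have other roles. Crat encodes carnitine O-acetyltransferase, which moves acetyl groups between coenzyme A and carnitine. Pfkfb3 encodes an enzyme that makes fructose 2,6-bisphosphate, an activator of glycolysis. Nsun5 encodes a cytosine methyltransferase of ribosomal RNA, Dapk2 a calmodulin-regulated serine/threonine kinase of the death-associated family, and Tmem104 a membrane protein.

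VDR ChIP-seq was made on crypts and villi of the proximal small intestine (SI) and on scraped colon epithelium, 4 samples of each. All VDR samples came from C57BL/6J mice injected with 10 ng/g 1,25(OH)2D3 and killed 1 h later, aged 4 to 6 weeks in the labels and older in the methods. VDR samples from mice without the hormone were not analysed here, and the values describe binding after the hormone and not its change with the hormone. ATAC-seq, which maps accessible chromatin, covered the same compartments with 3 samples each. Its mice were 90 days old in the labels and untreated in the methods, while the protocol text of the labels describes the injection. Crypt and villus fractions were released with EDTA and separated on a strainer, whereas the colon was scraped and not fractionated. The compartments were harvested from 1 group of mice and no label ties a sample to an animal. The way the tissue was taken therefore cannot be told apart from the segment. The p-values given here measure the spread between these samples, which may be technical in part.

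The label of the group was checked against the lists. The set higher in SI villus than in colon holds 811 sites, and 784 of the 18078 pooled SI villus VDR peaks overlap it (4.34%). Ranked within it by the −log10 q of the pooled SI villus peak, Crat was 1st (1814), Nsun5 2nd (1344), Tmem104 4th (764) and Dapk2 5th (754). Slc37a2 held rank 3 and is not a member, and the first site after Dapk2 was that of Med13l (735). Pfkfb3 held rank 69 in that set (−log10 q 209), so it was not among its strongest. Pfkfb3 was instead first of the 5 sites in the set higher in SI villus than in SI crypt, ahead of Apol9b (−log10 q 42.8). The main sites of Crat and Pfkfb3 were also in the set higher in SI crypt than in colon, at ranks 1 and 240 of the 473 pooled peaks that overlap it. Since these contrasts chose the genes, the VDR levels of SI against colon below are a description and were not tested. For Pfkfb3 this holds for SI villus against SI crypt as well.

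One site per gene, its main site, is described in full. It is the VDR region of the window with the highest −log10 q in SI villus among those whose nearest protein-coding transcription start site (TSS) is the member. The sequence under each summit is shown because the 5 sites share a DR3-like element. The choice of the genes used no sequence. However, the 5 sites are all among the 500 SI villus peaks of highest −log10 q, where such elements were common. Each line gives 30 bases around the summit of the pooled SI villus peak, 5′ to 3′, on the strand of the best DR3-like element, from the mm9 reference, with the 15 bases of that element in capitals.
Crat: ggtgctgGGGTCAGTGGGTTCGcggctccg
Nsun5: gatttccgGAGTCAAAGGGTTCGctgcttt
Tmem104: tccacctgGGGTCAAAGGGTTCTtagaagt
Dapk2: tgtcaggAGGTCATTAGGTTCTgccaactc
Pfkfb3: ggtgttaAGAGCACAGGGTTCActtccagc

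The Crat sequence is at chr2:30270930-30270959 on the plus strand, 387 bp inside the gene in a stretch annotated as UTR, and Crat itself (chr2:30255991-30271333) is on the minus strand. The Nsun5 sequence is at chr5:135845742-135845771 on the minus strand, and its summit is 69 bp upstream of the TSS of Nsun5 (chr5:135845823-135852675, plus strand). Both are promoter sites. The Tmem104 sequence is at chr11:115043340-115043369 on the minus strand, with the summit 5449 bp upstream of Tmem104 (chr11:115048801-115108337, plus strand). The Dapk2 sequence is at chr9:66001993-66002022 on the plus strand, with the summit 4020 bp upstream of Dapk2 (chr9:66006030-66120049, plus strand). These sites lie between genes. The Pfkfb3 sequence is at chr2:11367500-11367529 on the plus strand, and its summit is 56209 bp from the TSS, which is 25538 bp beyond the 3′ end of Pfkfb3 (chr2:11393057-11423728, minus strand).

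Every main site had a DR3-like element within 5 bp of its summit, and none of the 5 had the exact DR3. Among elements with equal matches the one nearest the summit was taken, so the closeness is in part built in. Of the 12 fixed positions of the consensus, the elements of Crat, Tmem104 and Dapk2 matched 11 and those of Nsun5 and Pfkfb3 matched 10. Positions are counted from 1 at the 5′ end of the element, with the base of the consensus first, where K is G or T. Crat differed by A15G, Nsun5 by G2A and A15G, and Tmem104 and Dapk2 by A15T. Pfkfb3 kept the last base and differed by K3A and T4G in the first half-site. Thus the elements of 4 of the 5 sites differed from the consensus at the last base.

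In the 200 bp around the summit, 1.69% of the 18078 pooled SI villus VDR peaks held the exact DR3, 8.25% an element of at least 11 matches and 28.9% one of at least 10. In the 500 peaks of highest −log10 q these shares were 9.4%, 39.8% and 77.4%, so near-matches were common among strong peaks. Among elements of exactly 11 matches, 17.3% differed at position 15 in all peaks and 22.4% in the strongest 500. The best element was searched after the data were seen. A match is a description of the letters and shows no binding of a given protein to them.

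Other consensus letters were searched in the same 200 bp on both strands. The half-site GGTTCA was found at Crat and Pfkfb3 and in 16.5% of the pooled SI villus VDR peaks. At Pfkfb3 this half-site overlaps the DR3-like element. At Crat it lies outside the element, which ends in GGTTCG. The half-site AGGTCA was found at Dapk2, where it is the first half-site of the DR3-like element, and in 18.6% of the peaks. Pfkfb3 also held the letters of a CDX motif (TTTATGG, in 1.67% of the peaks) and an E-box (CACGTG, in 4.26%). Nsun5 and Tmem104 held none of the searched motifs. The GC content was 69% at Crat, 55% at Nsun5, 59% at Tmem104, 54% at Dapk2 and 51.5% at Pfkfb3, against a median of 55.5% over all pooled SI villus VDR peaks.

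Depth limits the comparisons of height. The VDR samples kept 3100376 to 14716273 fragments after duplicate removal and the ATAC-seq samples 14376006 to 38175468 tags. SI crypt VDR sample 1 stood apart, with the fewest kept fragments and the most called peaks of the VDR samples (13382, against 1138 to 2481 in the other SI crypt samples). Accessible promoters checked the compartments: of 6 SI markers a pooled ATAC-seq peak lay at 6 in SI villus, 4 in SI crypt and 1 in colon. Of 5 crypt markers it lay at 5, 5 and 3 in that order, of 4 colon markers at 1, 1 and 2 (Car1 and Muc2 in no sample), of 4 epithelial markers at 4, 3 and 4, of 4 immune markers at 0 in each and of 4 stromal and vessel markers at 1 in each. By pooled peaks, the crypt markers do not separate the SI fractions. A peak in all 3 single samples lay at 3 of the 5 crypt markers in SI crypt and at 1 in SI villus.

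At the 4 sites called in all 3 compartments, the VDR summit was lowest in colon and highest in SI villus in the pooled lists. Because depth differs, pileup is given per 1000000 fragments kept after duplicate removal and called the scaled pileup. Pileup also depends on fragment length, for which this scale does not correct. The length was 144 to 193 bp in the colon VDR samples, 165 to 337 bp in those of SI crypt and 162 to 325 bp in those of SI villus. The scaled pileup is set beside the fold enrichment, the ratio of the pileup to the local background of the same library. In the pooled colon, SI crypt and SI villus lists the Crat site had a scaled pileup of 12.5, 39.8 and 46.3. The Nsun5 site had 10.3, 26.7 and 33.8 and the Dapk2 site 6.41, 14.9 and 20.9. The Tmem104 site had 5.48, 17.7 and 33.1 and the largest ratio of SI villus to colon in scaled pileup, 6.04, where the other 3 genes had 3.27 to 3.70. In bulk tissue, fewer cells with the site bound and less binding per cell cannot be told apart. Fold enrichment followed the same order over a smaller span, from 24.9 to 35.3 at Crat, 26.2 to 36.4 at Nsun5, 11.3 to 28.0 at Dapk2 and 5.78 to 11.6 at Tmem104, so that on this scale Dapk2 and not Tmem104 differed most. The Pfkfb3 site was not called in colon and had a scaled pileup of 1.38 in SI crypt and 5.99 in SI villus, with fold enrichments of 8.55 and 24.4. The peaks had no common width: the Tmem104 peak spanned 1494, 1402 and 2050 bp in the 3 lists, and the Nsun5 peak 705, 535 and 493 bp.

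Crat, the carnitine acetyltransferase gene, had the highest VDR summit of the 5. The main site was called in all 12 samples. In colon samples 1 to 4 the scaled pileup was 2.96, 10.5, 12.4 and 21.0. The SI crypt samples had 125, 26.8, 30.2 and 26.8 and the SI villus samples 90.1, 55.1, 16.7 and 46.1. All SI crypt samples were above all colon samples, whereas SI villus sample 3 was below colon sample 4, so SI villus and colon overlapped. The mean log2 difference from colon was 2.22 for SI villus (pooled SD 1.11). For SI crypt the ratio of the geometric means was 4.28, and the log2 difference was 1.56 without SI crypt sample 1. The site lies 613 bp from the TSS of Ppp2r4, which points the other way, so the shared promoter does not tell which gene it belongs to.

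Pfkfb3, the glycolytic regulator, had the lowest site and the only one absent from a compartment. It was called in none of the 4 colon samples, in SI crypt sample 1 alone at a scaled pileup of 4.84, and in all SI villus samples at 11.4, 5.12, 3.37 and 7.20. The lowest scaled pileup called anywhere in the genome in the colon samples was 0.544 to 0.687, and a summit lower than that would have been missed. Hence the values of colon are not known to be 0, and no ratio to colon is given. The single SI crypt call came from the library that stood apart in its number of peaks.

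Nsun5, the ribosomal RNA methyltransferase gene, was called in all 12 samples. The scaled pileup was 4.93, 12.5, 8.36 and 14.8 in colon. The SI crypt samples had 69.7, 23.8, 17.9 and 18.9 and the SI villus samples 66.0, 40.4, 12.1 and 31.5. All SI crypt samples were above colon, and SI villus sample 3 fell within the colon range. The mean log2 difference from colon was 1.77 for SI villus (pooled SD 0.88) and 1.55 for SI crypt (pooled SD 0.82), or 1.10 for SI crypt without sample 1.

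Dapk2, the calmodulin-regulated kinase gene, was called in 3 of 4 colon samples and in all 8 SI samples. Colon samples 2 to 4 had a scaled pileup of 5.99, 5.98 and 10.7. The SI crypt samples had 27.7, 11.9, 14.8 and 12.9 and the SI villus samples 41.7, 16.5, 11.1 and 28.0. Both SI groups lay above the called colon samples without overlap, by a narrow margin at SI villus sample 3. The mean log2 difference from colon was 1.57 for SI villus (pooled SD 0.72) and 1.12 for SI crypt (pooled SD 0.53), or 0.85 for SI crypt without sample 1. Colon sample 1 had no call and is not in these means.

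Tmem104, the membrane protein gene, was likewise called in 3 of 4 colon samples and in all SI samples. Colon samples 2 to 4 had a scaled pileup of 5.50, 5.23 and 8.12. The SI crypt samples had 46.8, 12.6, 17.2 and 11.8 and the SI villus samples 61.4, 29.7, 13.1 and 54.7. Neither SI group overlapped the called colon samples. The mean log2 difference from colon was 2.46 for SI villus (pooled SD 0.82) and 1.60 for SI crypt (pooled SD 0.74), or 1.15 for SI crypt without sample 1. The gene name rests on the nearest TSS only: the site is 857 bp from the 3′ end of Slc9a3r1, the gene of an apical scaffold protein, and 794 bp from Nat9.

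**Figure D1:**
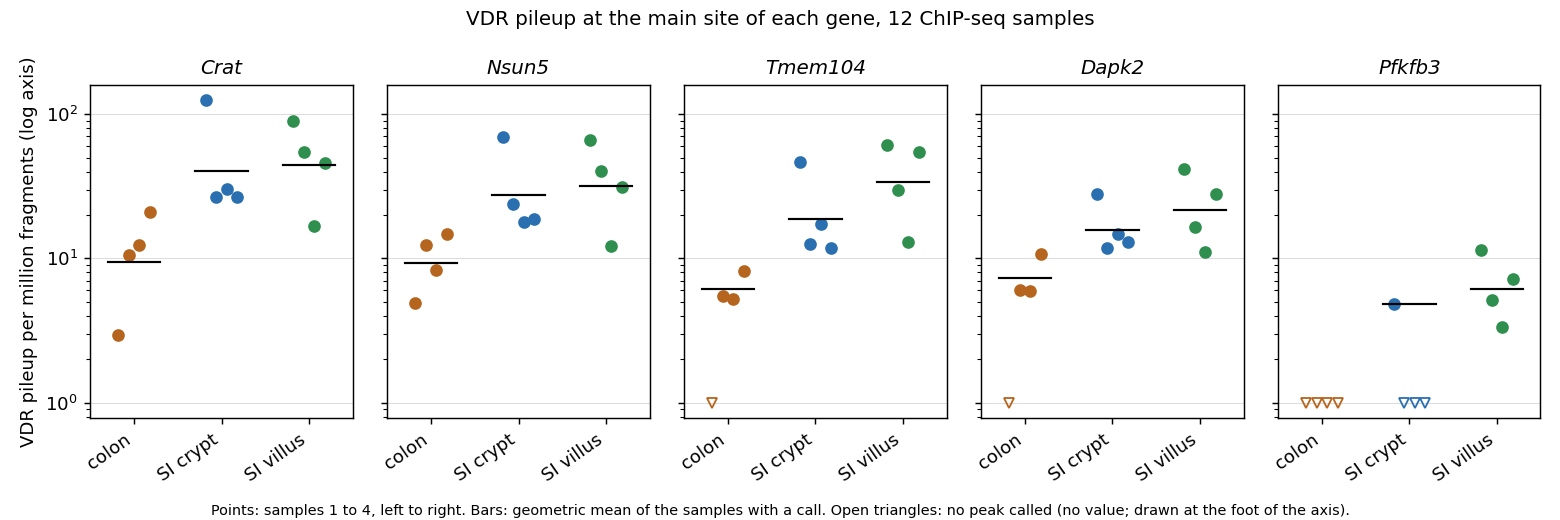
VDR pileup per 1000000 kept fragments at the main site of each gene (y axis, log scale) for samples 1 to 4 of colon, SI crypt and SI villus (x axis), with bars for the geometric mean of the samples that called the site and open triangles for samples without a call. At Crat, the SI crypt samples sit between 26.8 and 125 and the colon samples between 2.96 and 21.0. SI crypt sample 1 is the highest of its group at all 4 genes called in every SI sample.

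Across the 4 genes with values in colon, SI villus lay above colon without overlap at 2 (Tmem104 and Dapk2) and SI crypt above colon at 4 in scaled pileup. The sample with few fragments weighs on this scale, so each sample was also set to its own median over the 199 VDR regions called in all 12 samples, a scale chosen after the data were seen. On it, SI villus and SI crypt each lay above colon at 4 of 4 genes, with mean log2 differences of 0.99 to 2.00 and 0.73 to 1.39. Of these 4 genes, only Crat has its main site in the deposited set higher in SI crypt than in colon. The medians themselves were a scaled pileup of 2.41 to 7.32 in the colon samples, 5.43 to 13.9 in those of SI crypt and 3.53 to 13.2 in those of SI villus. In fold enrichment the separation was smaller: only Dapk2 had no overlap with colon, for each SI group, and the mean log2 differences were 0.57 to 1.14 for SI villus and 0.33 to 0.86 for SI crypt. The genes were chosen on SI against colon, and the same counts over all regions were not made. The counts without overlap therefore describe the 4 sites and do not set them apart from other regions.

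**Figure D2:**
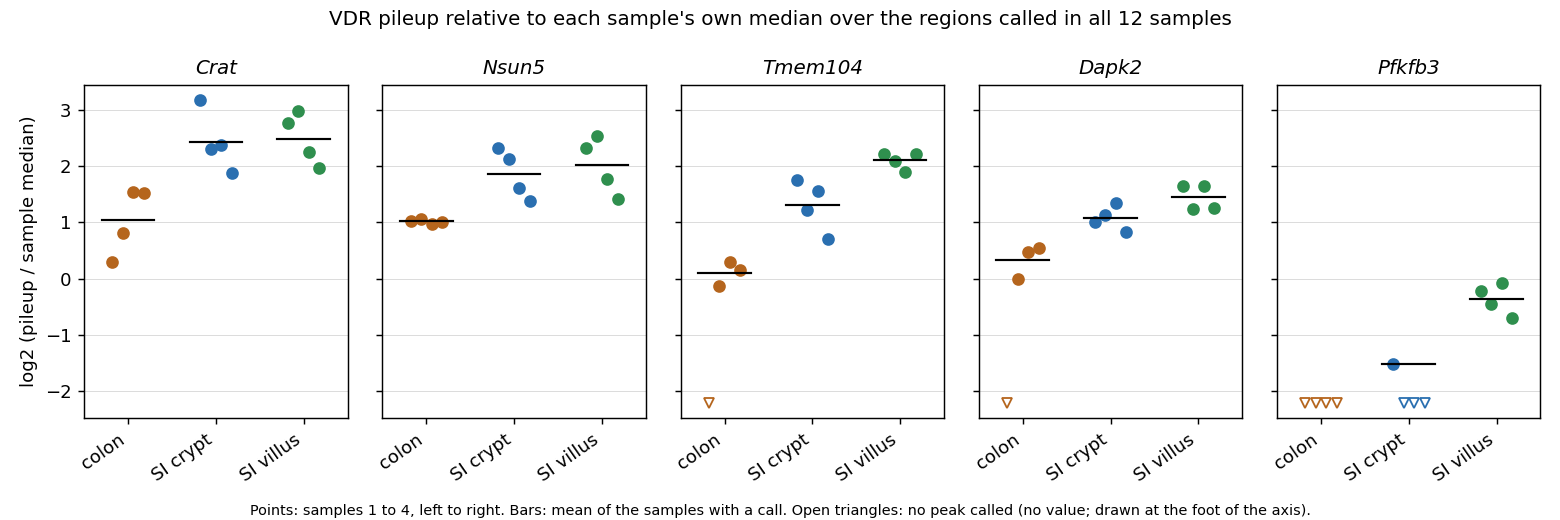
VDR pileup at the main sites divided by the sample's own median over the 199 regions called in all 12 samples, on a log2 scale (y axis), for samples 1 to 4 of each compartment (x axis), with bars for the mean of the called samples and open triangles for samples without a call. The SI groups lie above colon at Crat, Nsun5, Tmem104 and Dapk2, and SI villus lies above SI crypt without overlap only at Tmem104 among these 4.

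SI villus and SI crypt were then compared over the 8 SI samples, which also entered the choice of the genes. The limma fit covered the 359 regions called in all of them, on log2 pileup centred on each sample's median, and called 1 region at a Benjamini-Hochberg adjusted p below 0.05 (0.279%). The 4 members in the fit were not called. The log2 difference was 0.75 at Tmem104 (SE 0.25, 95% interval 0.20 to 1.30, limma adjusted p = 0.207) and 0.33 at Dapk2 (SE 0.21, interval −0.14 to 0.80, adjusted p = 0.501). It was 0.10 at Nsun5 (interval −0.61 to 0.82, adjusted p = 0.985) and 0.012 at Crat (interval −0.70 to 0.73, adjusted p = 0.998). The intervals at Dapk2, Nsun5 and Crat allow differences of either sign. Same-numbered SI samples deviated together, and with the replicate number as a block the fit called 5 regions, again none of the members, with an adjusted p of 0.0856 at Tmem104. Pfkfb3 lacked calls in 3 SI crypt samples and was not in the fit.

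Accessible chromatin at the main sites did not follow 1 pattern. Values are pileup divided by the sample's median over the 10801 regions called in all 9 ATAC-seq samples. Crat was accessible in all 9 samples, at 1.18, 0.978 and 0.969 in colon and at 0.957, 0.739 and 1.04 in SI crypt. The SI villus samples had 1.13, 1.19 and 0.812. The 3 groups overlapped at the Crat promoter. The log2 difference there was −0.0089 for SI villus minus colon (SE 0.20, 95% interval −0.40 to 0.38, limma adjusted p = 0.977) and −0.20 for SI crypt minus colon (interval −0.59 to 0.19, adjusted p = 0.441). For SI villus minus SI crypt it was 0.19 (interval −0.20 to 0.58, adjusted p = 0.540).

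The other 4 sites were called in fewer ATAC-seq samples. Nsun5 had a call in 2 SI villus samples, 2 colon samples and 1 SI crypt sample, at 0.261 to 0.441 times the sample median. Tmem104 was called in all 3 SI villus samples (0.957, 0.889 and 0.875) and in none of the 6 others. Pfkfb3 was called in 2 SI villus samples (0.383 and 0.667) and in none of the others. These 2 sites were thus seen as accessible in SI villus samples alone, while VDR was called at the Tmem104 site in all 3 compartments. Dapk2 was called in 1 SI crypt and 2 SI villus samples, but the pooled SI villus ATAC-seq summit lay at −441 bp from the VDR summit, which lay outside that peak. Pooled ATAC-seq peaks at −438 bp in colon and at −381 bp in SI crypt overlapped the VDR peak of their own compartment, whose summit lay outside them, and did not reach the narrower SI villus VDR peak.

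Over the whole windows, 23 colon, 14 SI crypt and 28 SI villus VDR peaks were found with 41, 75 and 83 ATAC-seq peaks. Of these pooled VDR peaks, main sites included, 13 of 23, 2 of 14 and 12 of 28 were called in none of the single samples. The share of such peaks in the whole pooled lists was not counted, so these numbers may be ordinary for the lists. An ATAC-seq peak of the same compartment overlapped 11 of 23, 10 of 14 and 21 of 28 VDR peaks. Over all pooled VDR peaks the shares were 41.9%, 50.4% and 56.3% in the same order. With the stricter condition that the VDR summit lies inside the ATAC-seq peak, the counts were 8, 6 and 13, where the shares over all pooled VDR peaks were 29.0%, 31.4% and 42.4%.

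**Figure D3:**
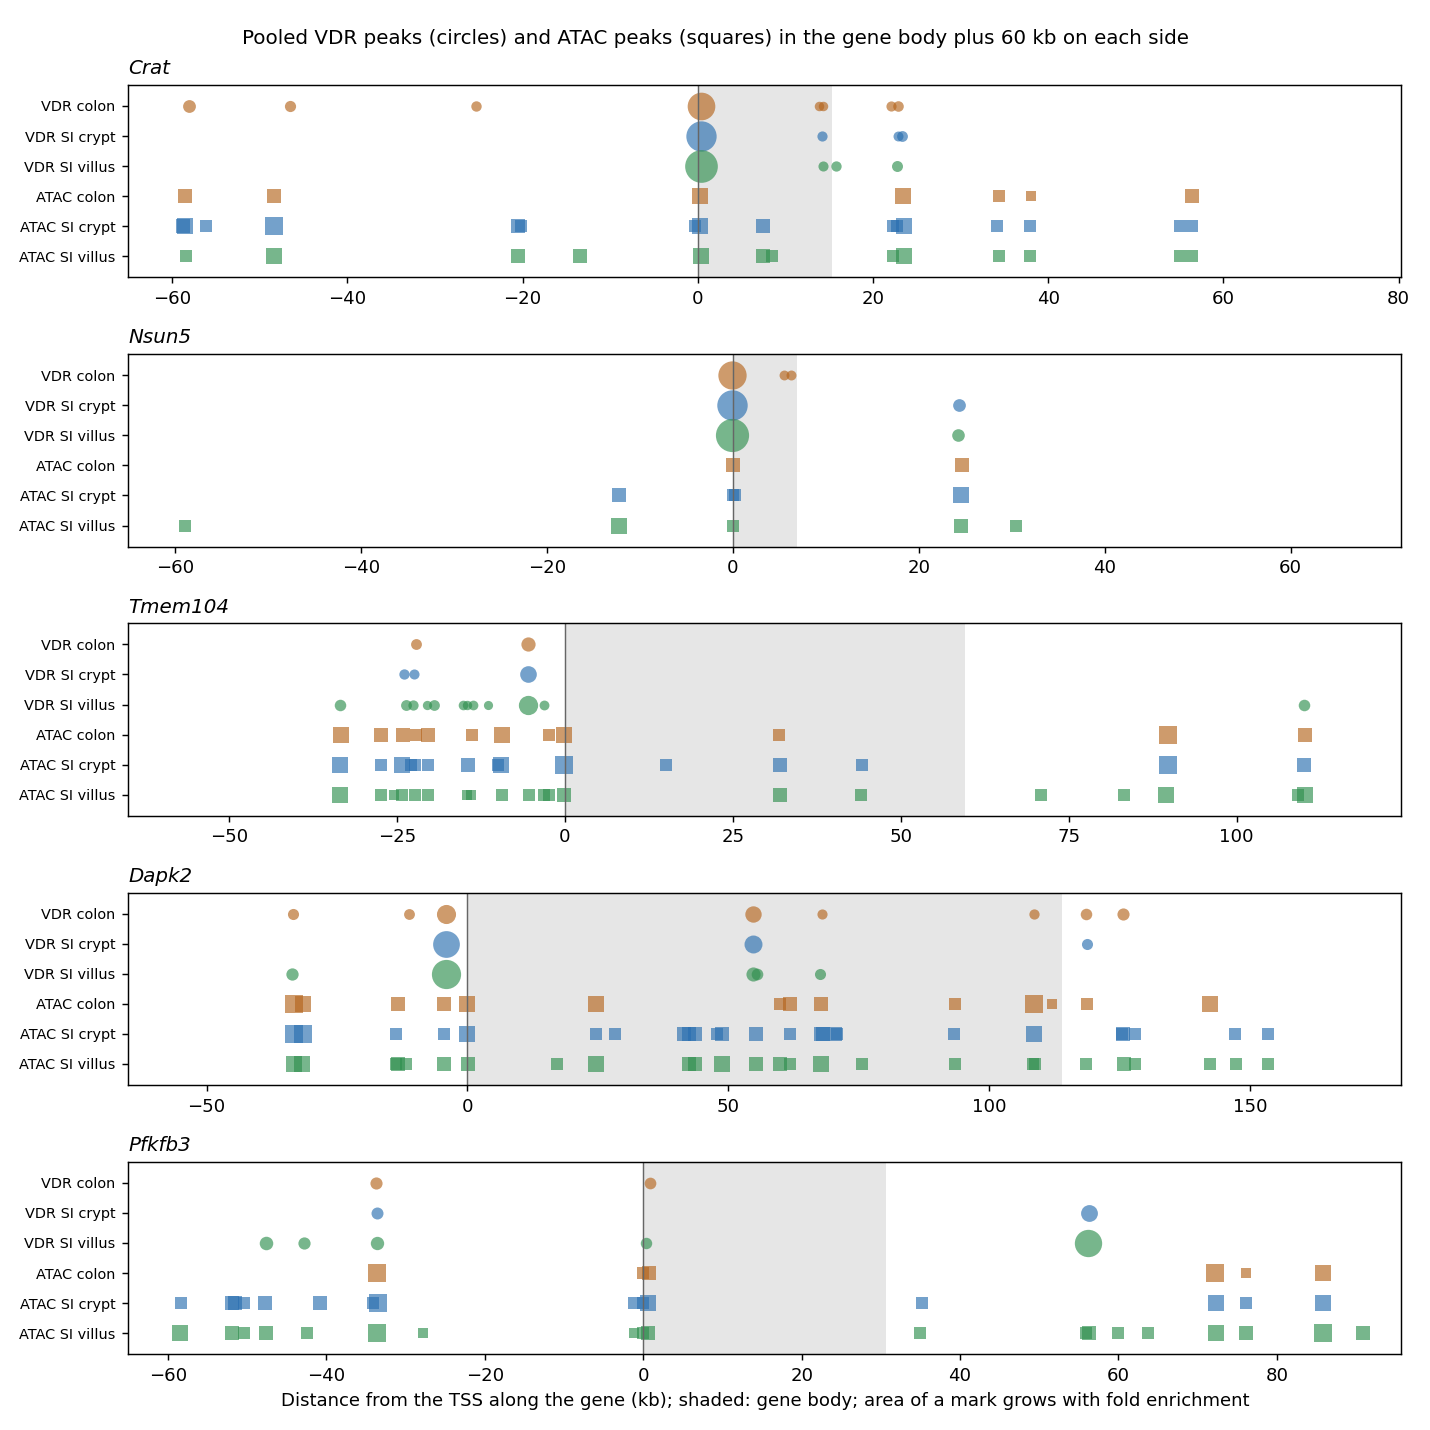
Pooled VDR peaks (circles) and ATAC-seq peaks (squares) of colon, SI crypt and SI villus in the windows of the 5 genes. The x axis is the distance from the TSS along the gene in kb. Each row of the y axis is 1 assay in 1 compartment, and the area of a mark grows with fold enrichment. In SI villus, the largest VDR mark of each window is at 0.39 kb for Crat, −0.07 kb for Nsun5, −5.45 kb for Tmem104, −4.02 kb for Dapk2 and 56.21 kb for Pfkfb3.

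A second VDR site of Dapk2 was lowest in SI villus, where the main site was highest. It lies in an intron, 54.75 kb from the TSS. The pooled fold enrichment there was 5.69 in SI villus against 9.89 in SI crypt and 8.04 in colon. It was called in colon samples 2 to 4, at a scaled pileup of 3.34, 2.24 and 5.25, in SI crypt samples 2 and 4, at 2.33 and 4.95, and in none of the SI villus samples. Both sites were called in all 3 pooled lists, and the single-sample calls differed mainly in SI villus. The difference between the sites was not tested, because samples without a call have no value.

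In the window of Tmem104 8 of the 12 SI villus VDR peaks had Slc9a3r1 as the nearest gene and 3 had Tmem104. Apart from the main site, the peak of highest −log10 q, at −19.57 kb, had a pooled scaled pileup of 5.35 with a fold enrichment of 2.83, was called in 2 of 4 SI villus samples and was not called in colon or SI crypt. The second sites of Pfkfb3, Crat and Nsun5 had a lower scaled pileup. That of Pfkfb3, at −47.66 kb, had a pooled scaled pileup of 1.07 in SI villus with a fold enrichment of 5.12 and was called in 1 sample. That of Crat, at 15.81 kb and nearest to Dolpp1, had 1.73 in SI villus with a fold enrichment of 2.52 and was called in 1 sample. That of Nsun5, at 24.29 kb near Pom121, had 0.869 in SI crypt and 0.607 in SI villus, fold enrichments of 4.42 and 4.32, with 1 sample of each calling it. None of these 3 was called in colon. Pfkfb3 also had a VDR peak at its start in colon and in SI villus (fold enrichment 3.55 and 3.36), called in 1 colon sample.

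The height of the ATAC-seq peaks was tested in limma over the 10801 regions called in all 9 samples, centred on each sample's median. It called 44.1% of all regions for SI villus minus colon, 37.5% for SI crypt minus colon and 22% for SI villus minus SI crypt. Of the 96 ATAC-seq regions in the 5 windows, 17 were called in all samples and could be tested. Of these 17, 6 were called for SI villus minus colon (3 higher, 3 lower), 3 for SI crypt minus colon (all higher) and 4 for SI villus minus SI crypt (2 higher, 2 lower). These counts are 35.3%, 17.6% and 23.5% of the 17, below or near the background shares. The median log2 difference over the 17 was 0.030, −0.010 and −0.027, against −0.048, 0.021 and −0.069 over all regions. These calls rest on the centring: on scaled pileup without it, the median log2 difference of all regions was −0.48, −0.32 and −0.17 and none of the window calls was kept.

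The region that differed most in the windows was at Pfkfb3, 72.3 kb from its TSS and so beyond its main VDR site. It stood at 1.00, 0.848 and 0.906 times the sample median in colon with 0.826, 0.522 and 0.840 for SI crypt. In SI villus it stood at 1.70, 1.75 and 1.75, above every other sample. The log2 difference was 0.92 for SI villus minus colon (SE 0.19, limma adjusted p = 0.000115) and 1.28 for SI villus minus SI crypt (SE 0.19, adjusted p = 2.27e-06). On fold enrichment both lost the call, with log2 differences of 0.18 and 0.49. At 85.8 kb the difference between SI villus and SI crypt was 0.58 (adjusted p = 0.0340), and near the Pfkfb3 start, at 0.7 kb, SI crypt exceeded colon by 0.58 (adjusted p = 0.0363). These last 2 calls were lost in 3 and 4 of 9 fits that left out 1 sample, with adjusted p up to 0.112 and 0.214. They were also lost on fold enrichment, at 0.26 and 0.24 (limma adjusted p = 0.367 and 0.395), and with regions called in at least 2 samples of each compartment (0.0624 and 0.100).

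Near Crat, the region at −48.4 kb, whose nearest gene is Ier5l, was higher in both SI compartments. Its values were 0.529, 0.565 and 0.422 in the colon samples. They were 1.70, 0.870 and 0.880 for SI crypt and 0.894, 0.861 and 1.06 for SI villus. Both SI groups were above colon without overlap. The log2 difference was 0.90 for SI villus minus colon (SE 0.23, limma adjusted p = 0.00144) and 1.12 for SI crypt minus colon (SE 0.23, adjusted p = 0.000138), and both calls were kept on fold enrichment.

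Near Tmem104 the accessible regions moved in both directions. The promoter of Slc9a3r1, at −24.2 kb, had 1.91, 1.52 and 1.58 in the colon samples. It had 1.87, 2.26 and 2.20 in SI crypt, against 1.11, 1.14 and 1.06 in SI villus. All SI villus samples were below the rest. SI villus was lower than colon by −0.59 (SE 0.15, limma adjusted p = 0.00136) and lower than SI crypt by −0.93 (SE 0.15, adjusted p = 9.01e-06) on the log2 scale. At the promoter of Fdxr, at 89.7 kb, the differences were −0.91 (adjusted p = 5.66e-06) and −0.68 (adjusted p = 0.000774). Both Fdxr calls were lost on fold enrichment, at −0.40 and −0.32 (limma adjusted p = 0.0624 and 0.203), while those at the Slc9a3r1 promoter and in an intron of Tmem104 were kept. The intronic region of Tmem104, at 32.0 kb, was instead higher than in colon, by 0.91 in SI villus (adjusted p = 0.0132) and 0.84 in SI crypt (adjusted p = 0.0258). The call of the intronic region for SI villus was lost without colon sample 3 or SI villus sample 3, and that for SI crypt without colon sample 2, colon sample 3 or SI crypt sample 2.

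The promoters of Tmem104 and Dapk2 themselves did not pass the test in any of the 3 comparisons. In the Dapk2 window, the region at −33.3 kb near Snx1 was lower in SI villus than in colon by −0.49 (SE 0.16, limma adjusted p = 0.0134), a call lost on fold enrichment, at −0.18 (adjusted p = 0.433), and without colon sample 2 or SI villus sample 2. The 1 region of the Nsun5 window in the fit, at 24.6 kb, was not called either. Nsun5 had no region near its start that was called in all 9 samples.

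**Figure D4:**
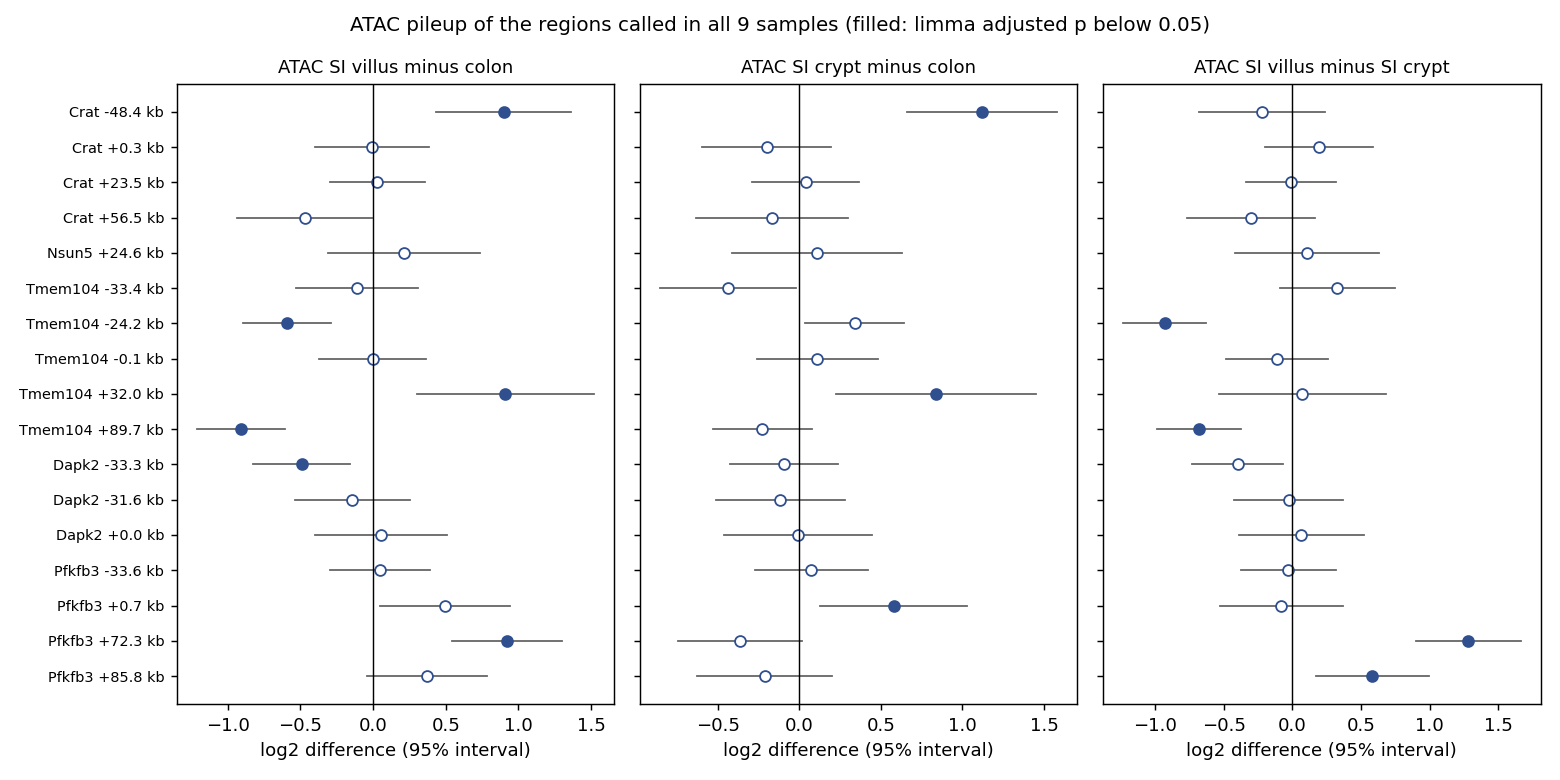
Log2 differences in centred ATAC-seq pileup with 95% intervals (x axis) for the 17 window regions called in all 9 samples (y axis, gene and distance from its TSS in kb), for the 3 comparisons, with filled points for a limma adjusted p below 0.05. The Crat promoter at 0.3 kb lies near 0 in each panel, and the Pfkfb3 region at 72.3 kb is at 0.92 and 1.28 in the comparisons of SI villus.

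The genes whose VDR sites were most like each main site in the 3 pooled lists were found by the Euclidean distance over log2 scaled pileup among 34864 VDR regions. The nearest to Crat were the Nsun5 site (distance 0.78), Agpat1 (0.84) and Cyp24a1 (1.00), and the nearest to Nsun5 were Cyp24a1 (0.33), Pabpc1 (0.51) and Pcbp2 (0.57). Cyp24a1 encodes the enzyme that inactivates 1,25(OH)2D3. Tmem104 was most like Bcl9l (0.63), Phgdh (0.74) and Dapk2 (0.74), and Dapk2 was most like G3bp1 (0.27), Muted (0.41) and Upk3a (0.41). Pfkfb3 was most like Apol9a (0.19), Guca2b (0.49) and Tinagl1 (0.52), which also lacked a colon peak. A list without the peak entered at the lowest scaled pileup it called. The distances rest on 3 points each and are a description.

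The other genes of the members' pathways, without the members, were counted with a VDR peak within 10 kb of the TSS. In the carnitine shuttle and fatty acid entry, 11, 10 and 9 of 16 genes had one, in the order colon, SI crypt, SI villus. Among NSUN and ribosomal RNA methyltransferases it was 6, 6 and 4 of 11, in the DAPK family and its partners 4, 3 and 3 of 7, and in the control of glycolysis 9, 6 and 9 of 17. Among SLC36 and SLC38 amino acid transporters, listed beside Tmem104, it was 5, 3 and 6 of 9. Over these 60 genes this was 58.3%, 46.7% and 51.7%, where all protein-coding genes had 32.4%, 22.4% and 28.6%. The shares were above those of all genes in every compartment, colon included.

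List genes with a site in SI alone were about as many as those with a site in colon alone. A VDR site in SI and none in colon was found for 8 of the 60 genes (13.3%, against 8.77% of all genes), and a site in colon and none in SI for 7 (11.7%, against 8.61%). The SI group held Acsl3, which activates fatty acids, Hk1, Hk2 and Pklr of glycolysis, Emg1 and Mettl5 of ribosomal RNA methylation, Uvrag and Slc38a1. The colon group held Slc25a20, the carnitine carrier, Pfkl and Slc2a1 of glycolysis, Nsun2 and Nsun4, Dapk1 and Mylk. With sites counted to 50 kb the numbers were 2 and 9. Besides the members, the lists had Acsl5 and Uvrag in a deposited set higher in SI than in colon, and Cpt1a, the enzyme that commits fatty acids to the carnitine shuttle, in a set higher in colon. Acsl5 and Cpt1a are named after their values were seen. At 285 to 329 bp from its TSS, Acsl5 had a higher pooled VDR fold enrichment in colon (10.4) than in SI crypt (4.69) or SI villus (4.41).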

How the data were processed

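VDR ChIP-seq (12 samples) and ATAC-seq (9 samples) of 3 intestinal compartments were analysed from the deposited peak lists of single samples and of pooled compartments. The submitters' processing notes name cutadapt 1.9.1, Bowtie2 2.2.6, SAMtools 0.1.19, Picard 2.18.27, MACS2 2.1.0.20150731, bedtools 2.17.0, deepTools and DiffBind. MACS2 was run by the authors at a q of 0.05 without a control sample, so the local background, taken over 10 kb, comes from the same library. The deposited pileup is a signal that was not scaled to depth, the deposited fold enrichment is the ratio of pileup to that background, and the deposited −log10 q values are from the MACS2 test. The other deposited columns are positions in mm9. In the pooled intervals the authors moved each peak to centre on its summit. The deposited sets of differential sites, made with DiffBind, give positions without a fold or p-value. No reads or counts were used.

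The members and the lists of genes, and so the comparisons, were chosen with earlier results of these data known. Genes named besides the members were the nearest genes to VDR peaks of the windows, the 3 most alike per member, and list genes with a site in SI or in colon alone. A distance to a TSS is negative upstream of the gene. Peaks overlapped when they shared at least 1 bp. All 65 list genes were found in the annotation, 2 of them under older symbols.

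Pileup was divided by the kept fragments in the file header, or centred on the sample's median over the regions of a fit. Regions called in every sample were fitted with limma 3.58.1 in R 4.3.3 (trended, robust) with Benjamini-Hochberg adjustment over all regions. The fit was tested on simulated data in which 100 regions were changed by 1 and 100 by 2 on the log2 scale. Of those changed by 1, 99% were found among 10801 in the comparison of ATAC-seq SI villus minus colon. In that of VDR SI villus minus SI crypt, 85% were found among 359. There the changed regions were a far larger share than the 0.279% called in the data. The adjustment is easier to pass when many regions change, so the 85% is not the power of the VDR fit. Regions without a call in a sample could not be tested, and a missing call is not a 0. Same-numbered SI crypt and SI villus VDR samples deviated together, with correlations of 0.538, 0.323, 0.690 and 0.510. Samples of different number reached 0.584, and 5 of 8 samples correlated best with their own number. Different numbers within samples 1 and 2 had 0.500 and 0.185, and within samples 3 and 4 0.542 and 0.584. Between these 2 sets the correlations were −0.721 to 0.0539. The fragment lengths of the SI VDR libraries were 162 to 198 bp in samples 1 and 2 and 238 to 337 bp in samples 3 and 4. Whether animals or libraries underlie the correlations was not tested. The data thus hint at the pairing without settling it, and the blocked fit is given beside the other. Python 3.11.15 with numpy 2.4.6, pysam 0.24.0 and matplotlib 3.10.9 was used. No pair of samples had identical lists. Alternatives were another scale, fold enrichment, a replicate block, regions called in fewer samples, stricter peaks, unmoved intervals, narrower windows and leaving out each sample.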

Additional observations from a re-analysis of the deposited data

Results flagged for a closer look

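In SI crypt VDR, sample 1 lay far above the other 3 samples in scaled pileup at 3 main sites: Crat (125), Nsun5 (69.7) and Tmem104 (46.8). The same sample had 13382 called peaks, far above the other SI crypt samples. In each case its gap to the next sample exceeded Dixon's 95% critical share of the whole range for 4 samples. These were 4 of 28 groups of 4 values examined, and chance alone passes this limit in about 1 of 20 independent groups. All 4 came from the same library, so the groups are not independent and the 4 are not separate events. The sample also had the fewest kept fragments of the VDR samples, 3100376, and the part of that in these values was not tested. Set to its own median over the regions called in all 12 samples, it stood at 9.02 for Crat, 5.02 for Nsun5 and 3.37 for Tmem104, against at most 5.18, 4.39 and 2.94 in the other SI crypt samples. ATAC-seq groups of 3 were too small for this limit.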

How the results depend on the processing

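ATAC-seq calls depended on the scale. On scaled pileup, not centred, they fell from 4765 to 1 for SI villus minus colon, from 4049 to 0 for SI crypt minus colon and from 2373 to 0 for SI villus minus SI crypt in limma, with 1558, 841 and 246 regions at an unadjusted p below 0.05. On log2 fold enrichment they were 2640, 2471 and 1081, of which 60.1%, 59.5% and 45.9% were higher in the first group, against 43.8%, 52.9% and 36.6% of the calls on centred pileup. With regions called in at least 2 samples of each compartment, SI villus minus SI crypt had 3563 calls. Leaving out 1 sample gave 3911 to 5274, 3307 to 4746 and 1649 to 2620. The ATAC-seq numbers did not pair the samples (correlations from −0.0915 to 0.103), and with the replicate block the calls were 4718, 4052 and 2341.

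For VDR SI villus minus SI crypt, limma called 1 region, 5 with the replicate block, and 0 on scaled pileup, on fold enrichment and with regions called in at least 2 samples of each compartment (4, 32 and 132 at an unadjusted p below 0.05). Leaving out 1 sample gave 0 to 2, without SI crypt sample 1 the highest. At Crat the log2 difference changed sign on centred fold enrichment (−0.10), with stricter peaks (−0.022) and over the samples left out (−0.17 to 0.31), and at Nsun5 on centred fold enrichment (−0.025) and over the samples left out (−0.086 to 0.31). None of these was called. Without centring, the mean log2 fold enrichment was higher in SI villus than in SI crypt by 0.17 at Crat and 0.24 at Nsun5. At the Crat promoter, centred ATAC-seq fold enrichment turned the differences from colon to 0.042 for SI villus and 0.029 for SI crypt, and leaving out 1 sample gave −0.10 to 0.18 for SI villus.

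VDR differences from colon shrank on fold enrichment to 0.76 for SI villus and 0.60 for SI crypt at Crat, 0.57 and 0.33 at Nsun5, and 0.93 and 0.47 at Tmem104, while those of Dapk2 moved by less than the replicate spread. With windows of 10 kb the VDR peaks were 12 in SI villus, 9 in SI crypt and 15 in colon and the ATAC-seq peaks 33, 35 and 19. With a −log10 q of at least 5, 13 colon VDR peaks were left. With the VDR summit required inside the ATAC-seq peak, 6 SI crypt and 13 SI villus peaks were left. The exact DR3 was at 0 main sites and an element of at least 10 matching positions at 5, an alternative added after seeing the data. The cause of these shifts was not tested. Peak lists hold summits past a threshold only, so lower signal in colon could not be measured.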
